A study of Mus musculus with 14 samples.

Results

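The genes described here encode the proteins of the cytosolic ribosome. They were taken by name: every gene in the deposited gene tables whose symbol has the form of a ribosomal protein gene of the large subunit (Rpl, Rplp) or of the small subunit (Rps), and Rpsa. The rule found 81 of 19215 genes, of which 49 belong to the large and 32 to the small subunit. It used no measured value. Mitochondrial ribosomal protein genes and the fusion gene Fau, which also yields a ribosomal protein, fall outside it and served for comparison.

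The study mapped where the neuronal RNA-binding protein NOVA binds RNA in mouse spinal cord. CLIP crosslinks protein to RNA with UV light, purifies the protein with an antibody and sequences the RNA fragments bound to it. Motoneuron (MN) CLIP used anti-GFP antibodies on pooled spinal cords of hemizygous Chat:GFP-Nova mice, C57BL/6 and 3 months old, in which a Chat BAC (choline acetyltransferase, a cholinergic neuron gene) drives GFP-tagged NOVA2. It comprised 4 libraries of line 6 and 4 of line 17. Whole spinal cord (WSC) CLIP used an anti-NOVA serum on wild type C57BL/6 mice, 3 months old, in 4 libraries. Poly(A) RNA-seq of the WSC came from 1 male and 1 female mouse, 12 weeks old, B6/SJL, both carrying the wild-type human SOD1 transgene Tg(SOD1)2Gur/J. The labels call the CLIP libraries biological replicates. Antibody, tag, transgene and pooling all differ between MN and WSC CLIP and cannot be told apart from cell type. The mice of the RNA-seq differ from those of the CLIP in strain and genotype.

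Each ribosome is built from a small subunit, which reads the mRNA, and a large subunit, which joins the amino acids. Their proteins are needed in near equal numbers in every cell, and their mRNAs commonly begin with a run of pyrimidines (the 5′ TOP motif) through which growth signals control their translation. Many of these genes have intronless processed copies elsewhere in the genome, and many carry small nucleolar RNAs, which guide the modification of ribosomal RNA, in their introns.

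The male library held 72006019 reads on genes and the female library 65625173. CLIP libraries held 65961 to 871804 unique reads in MN and 2213104 to 6095995 in WSC, so values from MN rest on far fewer reads. In the RNA-seq, markers of oligodendrocytes (summed RPKM 6981 male and 7505 female) and neurons (4215 and 4757) were present, as were the spinal cord Hox genes (103 and 99.8). Motoneuron markers summed to 112 and 139, with 4 of 6 at 1 RPKM or more in the male library. The lowest of them were Isl1 (0.647 and 0.663) and Mnx1 (0.935 and 1.92). Of the markers that other tissues would bring, dorsal root ganglion (0.0127 and 0.0377) and choroid plexus (0.349 and 0.252) were near 0. Those of meninges and fibroblasts summed to 11.9 and 15.9, with 2 of 4 at 1 RPKM or more in the male library. In the female library Col1a1 (1.02) and Lum (1.08) also reached it. Those of forebrain (2.86 and 2.30), skeletal muscle (2.08 and 2.43) and germ cells (1.76 and 0.785) each had 1 at that level in the male library. The germ cell marker Ddx4 had 1.58 RPKM there and 0.526 in the female library. Blood markers summed to 456 in the male and 179 in the female library, with 4 of 5 at 1 RPKM or more.

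Ribosomal protein genes took 0.596% ± 0.0039 (SD, n = 2) of all reads on genes, 427239 reads in the male and 392996 in the female library. Levels are given as RPKM, reads scaled to the length of a gene's exons in kilobases and to the library's total of reads on genes. They rest on reads with a single position in the genome, since reads with more positions had been removed. In spinal cord, 78 of the 81 genes had a mean of at least 1 RPKM, 56 at least 10 and 14 at least 100. The median was 18.9 RPKM in the male and 21.7 in the female library, against 3.51 and 3.39 over all genes. Small subunit genes had a median of 33.3 RPKM (range 1.73 to 1148) and large subunit genes 13.4 (0.0284 to 603). Such bulk levels cannot tell fewer cells of a type from less RNA per cell.

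The highest level was that of Rps14, a protein of the small subunit's platform, with 950 RPKM (37505 reads) in the male and 1345 (48381 reads) in the female library. It ranked 9 among all genes. Rps15, whose tail reaches towards the decoding centre, followed at 852 and 779 RPKM. Rps26, which lines the channel where mRNA leaves the ribosome, stood at 700 and 525. The ranges of Rps14 and Rps15 did not overlap between the libraries, but those of Rps26 and the next gene did. Among large subunit genes Rpl32 had 674 and 532 RPKM. Rpl4, which lines the exit tunnel of the nascent protein, had 516 and 532. The order of Rps26, Rpl32 and Rpl4 differed between the libraries. Rplp1, an acidic protein of the stalk that recruits elongation factors, had 517 RPKM in the male and 516 in the female library. Rps25, known for its part in internal initiation, had 463 and 410. Rpl8, which lies close to the peptidyl transferase centre, had 417 and 429. Rps25 was above Rpl8 in the male library and below it in the female library. The 10 genes of highest mean level held 59.0% of the ribosomal protein gene reads in the male and 58.2% in the female library.

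**Figure D1:**
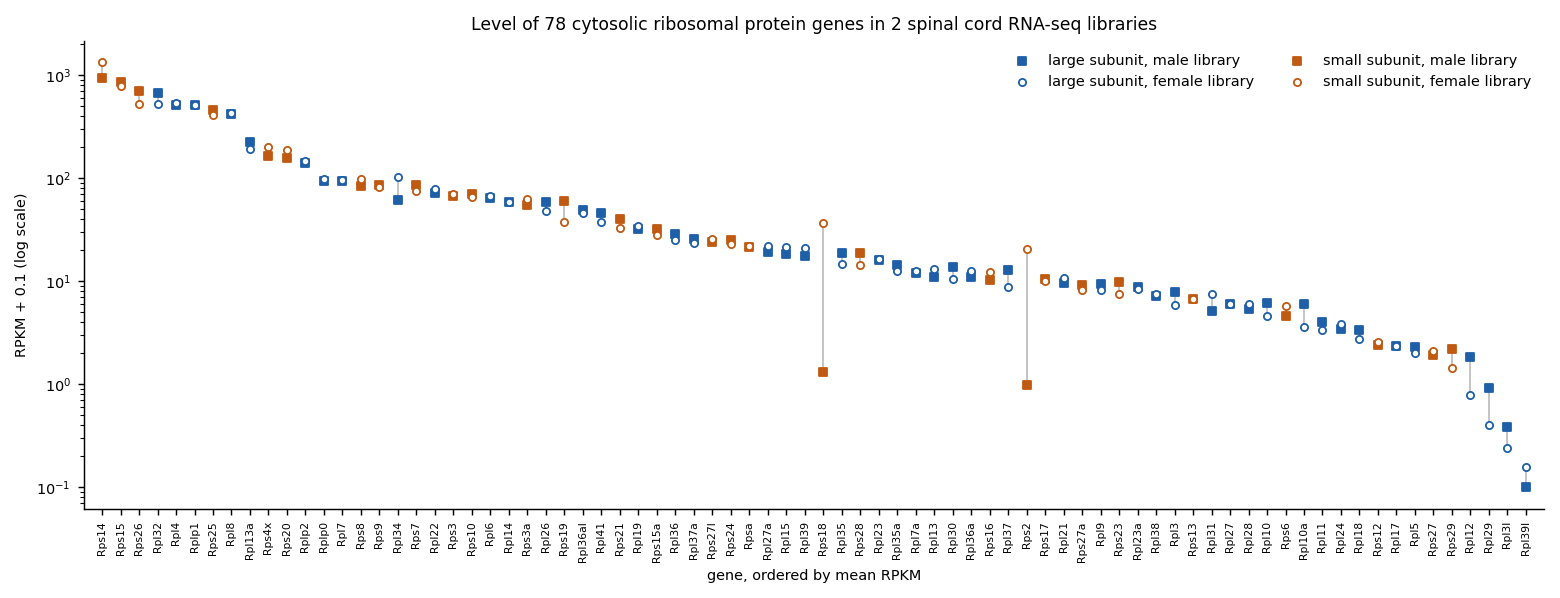
RPKM plus 0.1 on a log scale for 78 of the 81 genes, ordered by mean RPKM, with squares for the male and circles for the female library and colour for the subunit. Levels run from 1148 RPKM for Rps14 down to 0.0284 for Rpl39l, and the long lines at Rps18 (1.23 and 36.5) and Rps2 (0.881 and 20.4) join libraries that lie far apart.

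At the lower end stood genes of very different kinds. Rps29, a small zinc-binding protein, had 2.10 RPKM in the male and 1.35 in the female library (41 and 24 reads). Rpl12, of the stalk base, had 1.73 and 0.689 (22 and 8 reads) over a deposited exon length of only 177 bases. Rpl29 had 0.822 and 0.300 (42 and 14 reads), and 46 other places in the genome match parts of its transcript. The others were paralogs with restricted expression. Rpl3l, the striated muscle form of Rpl3, had 0.288 and 0.139 RPKM (25 and 11 reads). Rpl39l, known from testis, had 0 reads in the male and 3 in the female library (0.0568 RPKM). In the male library a count of 0 allows up to 0.0518 RPKM, counted as 3 reads and covering counting error only.

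How far a single-position count reaches was measured on the sequence. For 80 genes found in GENCODE M1 (Rpl41 was not matched) on NCBIM37 (mm9), the transcript nearest in length to the deposited exon length was divided into windows of 74 bases, the read length, and each window was searched for exact copies elsewhere in the genome. Lengths still differed widely for some genes. Examples are Rpl12 (177 bases deposited, 1242 in the transcript), Rps12 (1793 and 517), Rps20 (502 and 3706) and Rps24 (4096 and 855). Copied shares of such genes may cover other sequence than was counted, also where the shares are used to group or divide levels. The median gene had copies of 51.9% of its windows. Mitochondrial ribosomal protein (75 genes), proteasome (38) and respiratory chain (80) genes had a median of 0. In 4 genes no window was copied, Rps3, Rpl3l and Rpl39l among them. Rpl21, which matched 58 other places, Rpl7a (57), Rps2 (55) and Rpl29 (46) had the most.

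Genes with more copied sequence tended to have lower RPKM. With under 25% of windows copied, 18 genes had a median of 79.9 RPKM. With 75% or more, 23 genes had a median of 8.52 and none above 33.3. In between, 20 genes (25 to 50%) had a median of 22.8 and 19 genes (50 to 75%) one of 48.0, so the order was not steady. Across the 80 genes Spearman's rho was −0.497, a description over genes that share both libraries. Dividing each level by its share of windows without a copy raised the median from 19.9 to 65.5 RPKM. Of the 10 highest genes 9 remained, and Rps4x (612 RPKM) entered.

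**Figure D2:**
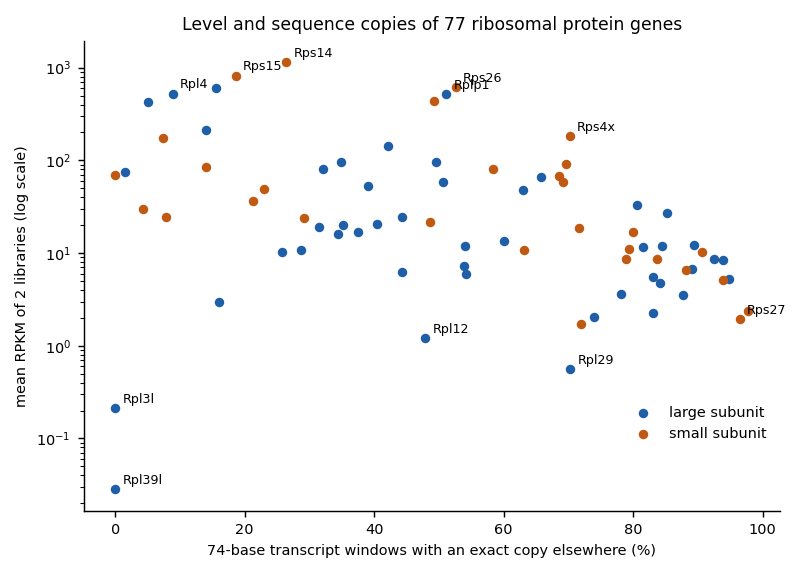
Mean RPKM on a log scale against the percent of 74-base transcript windows with an exact copy elsewhere, 1 point per gene for 77 genes. No gene with 75% or more of its windows copied lies above 33.3 RPKM, while Rpl3l and Rpl39l are low with no copied window.

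Pairs of related genes differ in copied sequence as well as in level. Rpl3, which lies by the peptidyl transferase centre, had 7.69 RPKM in the male and 5.82 in the female library with 89.1% of windows copied, above Rpl3l at 0.288 and 0.139 with none. Here the gene with more copied sequence was the higher. Rpl39, of the exit tunnel, had 17.4 and 20.8 RPKM (31.5% copied), far above Rpl39l. Rpl36a, on chromosome X, had 10.8 and 12.5 RPKM (81.6% copied) and its autosomal relative Rpl36al 49.7 and 46.4 (63.0%). Rps27 had 1.83 and 2.01 RPKM (96.4%) and Rps27l, known as a p53-induced relative, 23.8 and 25.6 (7.89%). In these last pairs the gene with less copied sequence was the higher, and the part of copied sequence in the order was not tested.

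Of the other genes on chromosome X, Rps4x had 164 RPKM in the male and 200 in the female library with 70.2% of windows copied. Rpl10, among the last proteins to join the large subunit, had 6.07 and 4.48 with 94.8%. Rps27a, made as a fusion with ubiquitin, had 9.19 and 8.22 RPKM (78.9% copied). In the stalk, Rplp0 had 94.7 and 98.9 RPKM and Rplp2 140 and 148, both below Rplp1 in each library. Copied shares of Rplp0, Rplp1 and Rplp2 were 34.9%, 51.2% and 42.1%.

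Other families put these levels in scale. A list of 47 other cytosolic translation genes had a median of 51.9 RPKM (range 3.11 to 457) and took 1.07% of reads in each library. In that list Eef2, the translocation factor, had 490 and 425 RPKM, and Eef1a1, which brings aminoacyl-tRNA, 385 and 359. The ribosome-bound scaffold Gnb2l1 had 143 and 141, and the fusion gene Fau 34.9 and 37.9. Mitochondrial ribosomal protein genes had a median of 21.4 RPKM, proteasome genes 55.8 and respiratory chain genes 99.6. As measured, the 81 cytosolic ribosomal protein genes had a lower median than each of these lists. Divided by the share of windows without a copy, their median of 65.5 RPKM lay above those of the other translation, mitochondrial ribosomal protein and proteasome genes, which were not divided in this way, and below that of the respiratory chain genes.

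The start sites of the genes were searched for the pyrimidine tract in RefSeq promoters (GRCm38.p6), which covered 60 genes with 72 start sites. The tract was C followed by at least 4 bases that are each C or T, on the gene's own strand. It began exactly at the annotated start at 13 member start sites (18.1%), against 2.47% of the start sites of other genes. Anywhere from 10 bases before to 15 bases after the start, 54.2% held one, against 30.7%. Of the genes with the highest levels, Rps26 is shown because its window holds the tract (in capitals) and Rpl4 because its window does not. They lie at chr10:128626492-128626516, minus strand, and chr9:64173377-64173401, plus strand.
Rps26: gcaagccgccggatCCTCTTTCgag
Rpl4: tttcctgtgggagcagccgggtaga
Like Rpl4, Rps15 and Rps25 had no tract in this window. Among the other highest genes, Rpl32, Rplp1 and Rpl8 had no start sequence to search.

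The 2 RNA-seq libraries were compared to see which of these genes differ between them. With 1 library of each sex there is no replicate, so the comparison is of 2 libraries and no test was made. A fold of 1.5 on RPKM plus 0.1 was passed by 7 of 78 genes with a mean of at least 1 RPKM (8.97%), against 3.49% of 11940 genes in all. Higher in the male library were 4 genes (background 2.11%) and higher in the female library 3 (background 1.38%). The median log2 ratio was 0.01 over these genes and 0.01 over all genes. Within a ratio of 5 to 4 lay 59 of the 78 (75.6%), against 85% of all genes.

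Rps18, which sits at the head of the small subunit, counted 69 male and 1870 female reads, at 1.23 and 36.5 RPKM. Rps2, at the mRNA entry, counted 70 and 1481 reads, at 0.881 and 20.4 RPKM. Both were chosen for description after their values were seen. No other ribosomal protein gene came near such a gap: the ratio of reads, female over male, was 29.7 for Rps18 (exact 95% interval 23.4 to 38.4) and 23.2 for Rps2 (18.3 to 29.9). These intervals cover counting error only. Rps18 lies at chr17:34088944-34092946 (minus strand) and Rps2 at chr17:24855061-24858874 (plus strand) on mm9. On chromosome 17, where 7 of the genes lie, 7% of 500 genes passed 1.5-fold. Of the 20 genes past 4-fold among all genes, 5 were on this chromosome. Of their windows, 71.7% in Rps18 and 63.1% in Rps2 were copied elsewhere. The part of copied sequence in the gap was not tested.

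The other differences were small. Among genes with at least 100 reads in each library, Rpl10a, of the L1 stalk, was highest in the male library by ratio (201 and 109 reads, 1.66-fold). Rps19, the gene most often mutated in Diamond-Blackfan anaemia, followed with 6365 and 3591 reads (1.61-fold). Rpl34 was higher in the female library, with 3092 and 4651 reads (1.65-fold). Rpl37 (763 and 474 reads) and Rpl31 (314 and 420) each differed by 1.46-fold, in the male and the female direction, and did not reach 1.5. The 2 others past the fold, Rps29 and Rpl12, rest on 41 and 24 and on 22 and 8 reads. Blood markers were also higher in the male library, and their part in these differences was not tested.

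**Figure D3:**
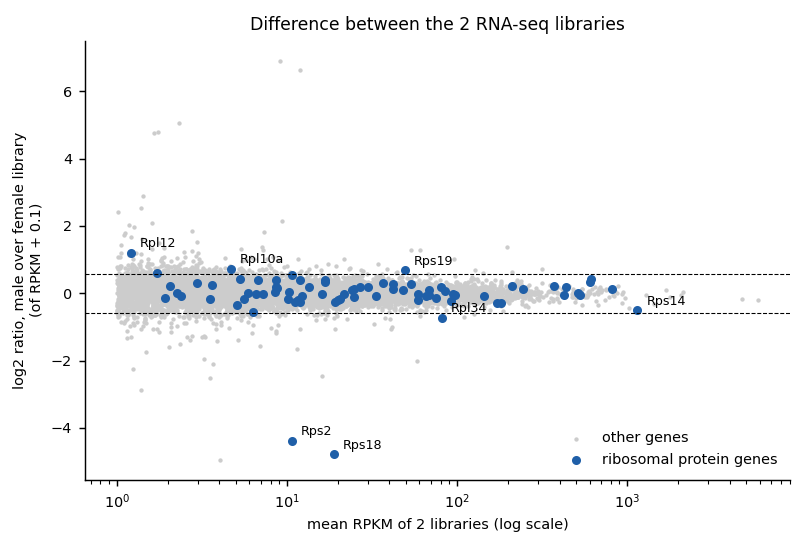
Log2 ratio of RPKM plus 0.1, male over female library, against mean RPKM on a log scale for genes of at least 1 RPKM, with ribosomal protein genes in blue and dashed lines at 1.5-fold. Rps2 and Rps18 lie below −4 and the other 76 ribosomal protein genes lie between the 1.65-fold higher female level of Rpl34 and the 2.32-fold higher male level of Rpl12.

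Splicing was measured on cassette exons, internal exons that a transcript includes or skips. The tables list 37 events in 20 of the genes, of 13189 in all, and 25 events in 15 genes had at least 10 junction reads in each library. The inclusion rate sets the average of the reads on both inclusion junctions against itself plus the skipping reads. Most of these events had a very high or very low rate: 14 had a mean rate of 90% or more, 7 of under 10% and 4 of between 10 and 90%, where 27.2% of all covered events fell. These are not counts of exons, since an exon can enter several events. The 18-base exon of Rps24 had mean rates of 2.88% and 27.3%, and its 20-base exon 89.9% and 100%, in different events. In 12 events no read skipped the exon in either library. None of the 25 differed between the libraries (Fisher's exact test, FDR 0.1), against 4.26% of 9396 covered exons. None had an unadjusted p under 0.05, against 12.3% of all. In the 12 events without a skipping read the test could find no difference, and other events share junction reads. The 25 events therefore cannot be set against these background shares. The smallest unadjusted p was 0.225 with all counts and 0.0799 with junction reads alone.

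The clearest alternative exons were in Rps24, a small subunit protein mutated in some cases of Diamond-Blackfan anaemia. Both are shown, in capitals, with the 4 intron bases at each side, to let their splice sites be read. The 18-base exon lies at chr14:25313274-25313291 and the 20-base exon at chr14:25314652-25314671 (mm9, plus strand), and GENCODE M1 does not annotate both ends of either.
Rps24 18-base exon: acagAAATGAAATACCTAGCAGgtac
Rps24 20-base exon: tcagTGAGTGGAGATTGGATACAGgtat
The 20-base exon was included at 89.4% (95% Wilson interval 87.5 to 91.0) in the male and 90.4% (88.4 to 92.0) in the female library. Its upstream junction had 1564 and 1335 reads, its downstream junction 554 and 507, and 126 and 98 reads skipped it to the last exon. The 18-base exon, measured against joining directly to the 20-base exon, was included at 2.86% (2.15 to 3.79) and 2.91% (2.14 to 3.94). It had 90 and 77 reads on its upstream junction but only 2 and 3 on the downstream junction to the 20-base exon. Measured against skipping to the last exon, its rate was 26.3% (20.3 to 33.4) and 28.2% (21.3 to 36.3). That rate rests on the same upstream junction, since no read joined the 18-base exon to the last exon.

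Rpl10 supplied the other exons of intermediate rate. Its exon of 163 bases (chrX:71518011-71518173) was included at 17.2% and 26.3% on 17 and 12 junction reads, and a form of 167 bases with the same start at 14.3% and 22.2%. Their wide intervals, seen in the plot of inclusion rates, reach from 5.50 to 42.7% and from 8.54 to 57.7% for the exon of 163 bases.

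**Figure D4:**
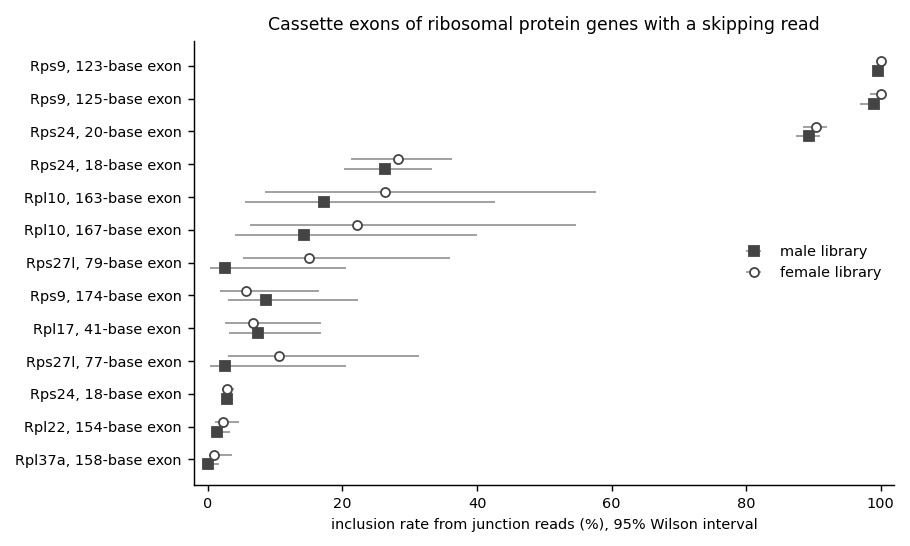
Inclusion rate in percent with its 95% Wilson interval for each covered cassette exon event with at least 1 skipping read, squares for the male and circles for the female library. The libraries' intervals overlap for every exon, from the Rps24 exon of 20 bases at 89.4% and 90.4% to the Rpl37a exon at 0% and 0.850%.

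Outside Rps24, the most deeply covered exons were included almost without exception. The 86-base exon of Rpl13a, a protein also known for silencing mRNAs in inflamed cells, had 4539 and 3881 junction reads and none skipping. The 2 further Rpl13a events, of 119 and 102 bases, each have 1 junction without reads, so they add no skipping. The 182-base exon of Rpl32 (1865 and 1339 reads) and the 56-base exon of Rps10 (1566 and 1286) also stood at 100%. The 49-base exon of Rpl6 had no skipping read and 592 and 613 junction reads, all but 2 and 1 of them upstream. The 123-base exon of Rps9, a protein of the small subunit's body, had 99.7% with 3 skipping reads in the male and 100% in the female library. At the other end were little-used exons. The 154-base exon of Rpl22 was included at 1.37% and 2.18%, the 41-base exon of Rpl17 at 7.44% and 6.67%, and the 174-base exon of Rps9 at 8.57% and 5.62%. These 3 exons were picked for the text after their values were seen. Of the 74-base windows of Rpl17, 83.1% were copied elsewhere, and the part of this in its rate was not tested.

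NOVA CLIP reads were counted on the genes' own strand, without reads that touch a small RNA. Of 80 genes in GENCODE M1, 71 had at least 1 read in WSC and 55 in MN. Their reads numbered 5244 in WSC and 380 in MN, with a median of 9 reads per gene in WSC. Reads were concentrated: 3 genes held 57.5% of the WSC reads and 10 held 82.6%, while 41 genes had under 10. In RPM, reads per 1000000 reads on genes, they took 363 ± 6.46 in WSC (SD, n = 4, range 355 to 371) and 215 ± 64.0 in MN (n = 8, lowest 130, median 211, highest 325). Every WSC library was above every MN library. Line 6 had 185 ± 59.9 and line 17 244 ± 60.6 (n = 4 each), and these ranges overlapped.

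Reads on these genes were mostly exonic, 94.0% ± 1.32 in WSC and 77.5% ± 4.44 in MN. Over all genes the exonic share was 63.9% ± 2.13 in WSC and 40.9% ± 3.58 in MN (exact permutation test, two-sided, p = 0.00404, the smallest the design allows). It differed little between line 6 (40.5%) and line 17 (41.4%, exact permutation p = 0.8). Both the level on ribosomal protein genes and the exonic share were thus lower in MN. The part of the exonic share in the lower level was not tested. As a share of exonic reads, ribosomal protein genes took 0.0535% ± 0.0020 in WSC (n = 4) and 0.0403% ± 0.0103 in MN (n = 8). The mean share was also lower in MN for other translation (0.408% and 0.210%), respiratory chain (0.133% and 0.0922%), mitochondrial ribosomal protein (0.0768% and 0.0636%) and proteasome genes (0.0535% and 0.0476%).

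Against their share of mRNA, ribosomal protein genes had few exonic CLIP reads. Their RNA-seq share was 11.1 times their WSC exonic share of 0.0535% ± 0.0020 (n = 4), or 14.1 times without Rpl24, which is dealt with separately. The same ratio was 9.42 for respiratory chain, 7.69 for proteasome, 3.14 for mitochondrial ribosomal protein and 2.63 for the other translation genes. In windows of 45 bases, about the median WSC CLIP read, these genes had at least as much copied sequence as in 74, as in Rps15 (56.5% against 18.6%). NOVA is neuronal, while the RNA-seq is of all cells of the cord, from other mice. The part of these differences in the ratio was not tested. Across the 80 genes, WSC exonic reads and RNA-seq reads had a Spearman's rho of 0.519, a description over genes that share libraries.

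The read-rich sites are given first for the genes with most WSC reads. Each is 30 bases on the gene's strand, centred on the base covered by most WSC reads. Capitals mark the NOVA motif, searched as TCAT or TCAC and CCAT or CCAC on the transcribed strand with overlaps allowed. Of 30-base windows across these transcripts, 34.0% of 7265 hold one. Of the 9 sites within the matched transcript, 8 hold one and that of Rpl26 does not. Rps15a is at chr7:125250295-125250324 (minus), Rpl15 at chr14:19100636-19100665 (minus), Rpl4 at chr9:64024849-64024878 (plus), Rpl8 at chr15:76734971-76735000 (plus), Rplp1 at chr9:61762181-61762210 (minus) and Rpl26 at chr11:68717988-68718017 (plus), all on mm9. The Rpl4 and Rpl26 windows run 1 and 5 bases past the end of the annotated exon.
Rps15a: tttCCATcTCATgcctgcattgtTCATccc
Rpl15: ggtaactgcctggatgttgacattTCACaa
Rpl4: taTCATcaaggccttccgcaacatccctgg
Rpl8: caTCATTCATgaccctggccgcggcgctcc
Rplp1: gcatctactccgcccTCATcctgcacgacg
Rpl26: aggagtagagacatctcgtgcacggctttc

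Of the sites printed, those of Rps15a, Rpl15 and Rpl26 lie in the last exon of the matched transcript and those of Rpl4, Rpl8 and Rplp1 in earlier exons. Reads were narrow on several genes. On Rpl26, of the exit tunnel's rim, the site held 106 of 121 WSC reads, with 9, 57, 31 and 9 in the 4 libraries. On Rplp1 it held 80 of 101, with 21, 28, 21 and 10. On Rps15a 157 of 1170 reads did, in a last exon of 4816 bases.

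Rps15a, a small subunit protein with a long 3′ exon, had most reads, 229, 425, 395 and 121 in the 4 WSC libraries, or 78.7 ± 8.46 RPM (n = 4). MN libraries ran from 38.6 to 76.6 RPM with a median of 50.6 (93 reads in all). Had MN reached the WSC level it would have had 128 reads. The groups overlapped, and the log2 fold change of MN against WSC was −0.38 (edgeR quasi-likelihood test, adjusted p = 0.0402, threshold 0.01). On exonic reads alone it was 0.38 (adjusted p = 0.0615), of the opposite sign. Rps15a was not called in either count. Fitted without the filter on low counts, it was called lower on all reads (−0.59, edgeR adjusted p = 0.00947). On exonic reads that fit did not call it (0.11, edgeR adjusted p = 0.796).

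Rpl15, a large subunit protein, had 120, 268, 242 and 82 WSC reads, or 47.8 ± 4.95 RPM, and 31 reads in MN against 78 at the WSC level. MN libraries lay between 0 and 26.8 RPM (median 12.5), with no overlap with WSC. Rpl15 was the single ribosomal protein gene called, with a log2 fold change of −1.26 ± 0.26 (SE, edgeR, adjusted p = 0.000123). Just 3 of the genes had enough reads to be tested, with 1 called lower in MN, against 29.1% of 4635 tested genes lower and 28.1% higher. With 3 genes tested, a share cannot be compared with that background. Rpl15 did not pass the filter on low counts in 6 of the 12 fits that left out 1 library, those without line 6 replicate 3, line 17 replicate 4 or any of the 4 WSC libraries. No ribosomal protein gene was then called, except Rpl24 without WSC replicate 2 (log2 fold change −0.57, edgeR adjusted p = 0.00871). On exonic reads Rpl15 did not pass the filter (without it −0.79, edgeR adjusted p = 0.0438), where 24% of 2346 genes were lower and 23.7% higher in MN and neither of 2 ribosomal protein genes tested was called.

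Fitted without the filter on low counts, 9 of 75 ribosomal protein genes (12.0%) were lower in MN and 2 (2.67%) higher, against 13.6% lower and 6.27% higher of 19883 genes. The share lower was near the background, and 1 of the 9 was Rpl24, whose reads lie almost wholly outside its transcript. Among those lower were Rpl26 (log2 fold change −3.63, edgeR adjusted p = 0.000111), Rplp1 (−2.52, adjusted p = 0.00322), Rpl8 (−1.98, adjusted p = 0.00409) and Rpl4 (−1.09, adjusted p = 0.0044). Rpl26 had 10, 62, 36 and 13 WSC reads and 1 read in MN, where the WSC level would have given 12.4 and the exact 95% interval of a count of 1 is 0.0253 to 5.57. Rplp1 had 27, 32, 29 and 13 WSC reads and 2 in MN (exact interval 0.242 to 7.22), against 11.8 at the WSC level. The genes higher, named after their values were seen, were Rps13 (7 reads in MN and 1 in WSC) and Rps27l (4 and 2). On exonic reads without the filter, Rpl4 was lower (−1.78, edgeR adjusted p = 0.00271). In that fit Rpl26 (−2.91, edgeR adjusted p = 0.0131) and Rplp1 (−1.82, adjusted p = 0.111) were not called.

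Rpl4 had 365 WSC reads, 26.0 ± 6.78 RPM, and 21 in MN against 42 at the WSC level, with MN libraries between 0 and 19.1 and no overlap. Rpl26 and Rplp1 also had no overlap, on 1 and 2 MN reads. Rps20, of the small subunit's head, had 200 reads in WSC (13.8 ± 2.14 RPM) and 27 in MN (15.1 ± 8.08 RPM), and its values overlapped. Its deposited exon length is 502 bases, whereas the last exon of the matched transcript, which holds its site, has 3350. Rpl8 (9.73 RPM in WSC and 4 MN reads against 15.8 at the WSC level) and Rps15 (7.75 and 4 against 12.6) had ranges that overlapped. Scaled on exonic reads, the WSC level would have given 9.48 and 7.07.

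**Figure D5:**
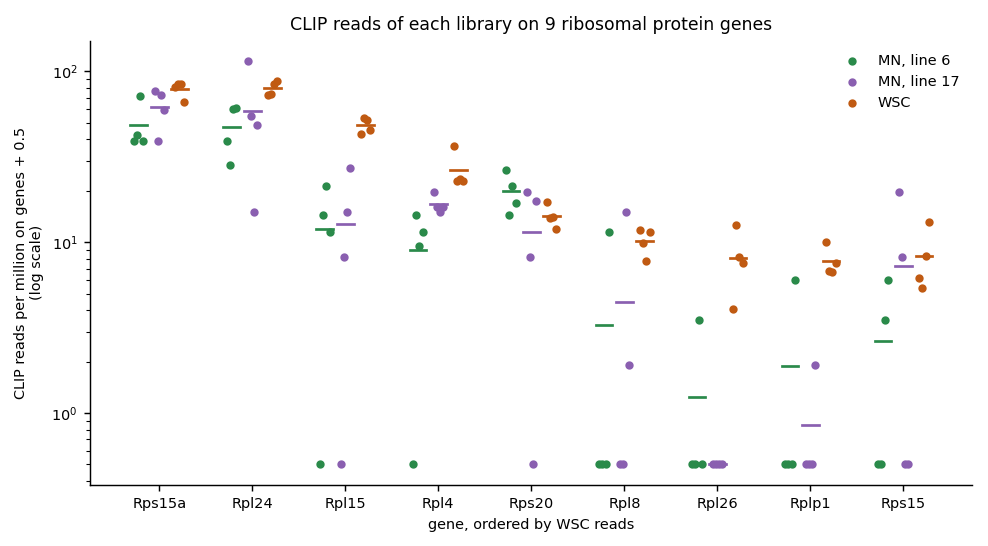
CLIP level in RPM plus 0.5, on a log scale, for each library on 9 of the 10 ribosomal protein genes with most WSC reads, coloured by group, with a bar at each group mean. The 4 WSC points of Rpl15, Rpl4, Rpl26 and Rplp1 lie above all 8 MN points, while those of Rps20 lie among them.

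Rpl24 needs a separate reading. It counts 1133 WSC reads (79.2 ± 7.88 RPM), but 1129 of them (99.6%) lie outside the transcript span chr16:55966506-55971547. Their highest point is in an exon at chr16:56006921-56009026, 37320 bases beyond it, that GENCODE M1 joins to the gene. The log2 fold change of −0.50 (edgeR, adjusted p = 0.0166) therefore rests almost wholly on reads outside that transcript. Rpl11 (92.1% of 38 reads) and Rpl5 (59.6% of 99), the partners of 5S rRNA, share this problem. Within the matched spans, all ribosomal protein genes together had 276 ± 5.80 RPM in WSC and 159 ± 43.5 in MN. Between the lines, edgeR called 0 of 4635 genes, with 221 at an unadjusted p under 0.05 and none of the 3 ribosomal protein genes among them; DESeq2 called 1.

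Between the ends of these genes, on the same strand, lie 59 annotated small RNAs in 31 genes, and 8 had no WSC read. Reads assigned to them numbered 4425 in WSC and 413 in MN. For small RNAs RPM is taken per 1000000 unique reads of the library, and was 278 ± 87.5 in WSC (n = 4) and 216 ± 110 in MN (n = 8), ranges that overlap. Snord32a, a box C/D small nucleolar RNA in Rpl13a (chr7:52382752-52382834, minus), had 752, 734, 837 and 567 reads in the WSC libraries. That is 187 ± 63.1 RPM, against 58.6 ± 71.7 on 63 reads in MN, and the groups overlapped at line 17 replicate 1, the smallest library, which held 15 of the 63. SNORD101, in Rps12, had 7.89 ± 4.89 RPM in WSC and 24.1 ± 25.6 in MN, a spread wider than the gap. Snord34, also in Rpl13a, had 9.94 ± 4.44 RPM in WSC (149 reads) and 7.62 ± 8.84 in MN (20 reads), and these overlapped.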

How the data were processed

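The authors trimmed RNA-seq reads to 74 nt, aligned them with OLego to mm9 and junctions, kept reads with a single position and counted them per gene and exon with Quantas. The deposited files hold raw read counts per gene and per exon junction, and RPKM computed by the authors. CLIP reads were aligned by the authors to mm9 with Novoalign and collapsed to unique reads, and each deposited line carries a score that was not used here. Lines were counted on GENCODE M1 genes, by strand. The labels of line 6 replicate 2 name mm10 beside mm9. Its exonic share was 39.8%, within that of the other MN libraries.

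CLIP counts were compared with edgeR 4.0.16 (quasi-likelihood, TMM, filterByExpr, FDR 0.01, Benjamini-Hochberg) in R 4.3.3. DESeq2 1.42.0 was an alternative. Exons were compared by Fisher's exact test in scipy 1.17.1, with 10 junction reads as the minimum and FDR 0.1. Library ratios used log2(RPKM + 0.1). Sequence was read with pysam 0.24.0. Code was tested on simulated data. The genes named were the 10 highest and 5 lowest by RPKM, the 5 largest library ratios among genes with at least 100 reads in each library, paralog pairs, chromosome X, stalk and ubiquitin fusion genes, the best-covered and intermediate exons and the 10 with most WSC reads. Results of some genes are not reported here, and figures leave these genes out. Members and lists were chosen with earlier results of these data known. Intervals cover counting error, since RNA-seq reads carry no molecular identifiers.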

Additional observations from a re-analysis of the deposited data

Results flagged for a closer look

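In 2 of the 26 groups of 4 libraries examined, 1 library stood apart from the other 3 by Dixon's ratio (gap to the nearest value over the whole range, above the 95% critical value for 4 samples), where chance gives about 1 in 20. Both are WSC libraries. For Rps15a the ratio was 0.845, with 66.1 RPM in 1 library and 81.1, 83.5 and 83.9 in the others. For Rpl4 it was 0.961, with 36.1 against 22.4, 22.4 and 22.9.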

How the results depend on the processing

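Between the RNA-seq libraries, 13 genes were higher in the male and 6 in the female library at a ratio of 5 to 4, and 1 in the male library at 2-fold. The median RPKM became 65.5 when divided by the share without a copy. For MN against WSC, ribosomal protein genes called lower numbered 9 (2 higher) without the filter on low counts, 2 with library totals alone, with small-RNA reads kept, with line 6 alone and with line 17 alone, and 3 at FDR 0.05. Leaving out 1 library gave 0 to 2: 0 without line 6 replicate 3, line 17 replicate 4 or WSC replicate 1, 3 or 4, 1 (Rpl24) without WSC replicate 2, and 2 (Rpl15 and Rpl24) without line 17 replicate 1. In the first 6 of these 7 fits Rpl15 did not pass the filter. Where it was tested, Rpl15 had a log2 fold change of −1.23 to −1.16. Genes called ran from 1935 to 2904, and 769 to 1296 on exonic reads. Without the filter, 1965 genes were called on exonic reads, with 2 ribosomal protein genes lower. Between the lines, the count of genes called was 1 with DESeq2, 2 without the filter and 0 to 3 with 1 library left out. In that comparison, which called neither gene, leaving out 1 library moved Rpl24 from −0.0655 (line 17 replicate 4) to 0.229 on the log2 scale, with −0.0375 without line 6 replicate 3, and Rps15a from −0.538 to 0.0788 (line 6 replicate 4). The cause of these shifts was not tested.

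Replicate numbers did not pair the libraries: over 12 same-number pairs the correlation of deviations ran from −0.064 to 0.188, with 2 above 0.1. With the replicate block, 2200 genes were called against 2654, and 827 on exonic reads against 1120. Rpl15 remained lower (−1.36, edgeR adjusted p = 0.000547). MN depth limits all but the most-read genes.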
